A study of Mus musculus with 30 samples.

Results

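The 7 genes described here are Cspg4, Rgs5, Pdgfrb, Kcnj8, Abcc9, Mcam and Notch3, a list of pericyte markers taken by name from a total of 27738 gene symbols that occur in all of the bulk and single-cell tables. The samples were mouse wild-type heart cells, labelled as primary cardiac fibroblasts (CFs), in 28 bulk RNA-seq libraries of 14 groups with 2 libraries each and in 2 single-cell libraries. CFs were cultured for 3 days and came from neonatal animals (postnatal day 1 to 3) or from animals 3, 12 and 24 months old. Neonatal, 3-month and 18-month CFs were collected on day 3 after LacZ, the control gene, or MGT, the cardiac transcription factors Mef2c, Gata4 and Tbx5 that turn fibroblasts into induced cardiomyocyte-like cells. Neonatal CFs on day 10 carried an Nr4a3 overexpression (OENr4a3) or its control (OECtrl). MGT-treated CFs from 3-month animals on day 7 carried a hairpin against Nr4a3 (shNr4a3) or a non-targeting one (shNT), so both arms of that comparison carry MGT. The single-cell libraries are labelled as neonatal and aged (24 months) induced cells, with 1 library at each age. It is not given in the labels if 2 libraries of a group came from different animals or cultures, so the p-values measure the spread between these libraries only, and that spread may be technical. No library is labelled as pericytes.

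Pericytes are mural cells that lie on capillaries inside the basement membrane shared with the endothelium. Endothelial PDGF-BB recruits them through the receptor encoded by Pdgfrb, and Notch3 is a receptor that mural cells use to respond to Notch ligands on neighbouring cells. In the heart, Kcnj8 and Abcc9 encode the pore and the regulatory subunit of a mural ATP-sensitive potassium channel, and Rgs5 encodes a regulator that shortens G protein signalling. Cspg4 (the NG2 proteoglycan) and Mcam (the adhesion molecule CD146) are surface proteins, and neither these nor Pdgfrb is restricted to pericytes, since fibroblasts carry PDGF receptor beta and endothelial cells carry CD146.

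The genes lie on several chromosomes of build GRCm38. Cspg4 lies on chromosome 9 from 56865033 to 56899870 on the plus strand, and Mcam lies on the same chromosome from 44134469 to 44142727, also on the plus strand. Rgs5 lies on chromosome 1 from 169655501 to 169695813 on the plus strand, and Notch3 on chromosome 17 from 32120820 to 32166852 on the minus strand. Kcnj8 (142564837 to 142571614) and Abcc9 (142587862 to 142702315) are neighbours on the minus strand of chromosome 6, with 16247 bases and 0 annotated genes between them. Antisense genes overlap Abcc9 (5330439B14Rik), Mcam (Gm10687) and Notch3 (Gm17276). Whether reads were counted by strand is not given in the sources used here, so reads of these 3 members and of their antisense partners cannot be told apart.

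The promoters of the 4 members whose level was lower in adult than in neonatal CFs at every age are shown. In other comparisons these genes did not all move together. RefSeq promoters (GRCm38.p6, 250 bases before to 50 bases after the start, in the direction of the gene) matched 6 of the 7 members. Cspg4 is shown from chr9:56864854-56865153 on the plus strand, Rgs5 from chr1:169655251-169655550 on the plus strand, Mcam from chr9:44134408-44134707 on the plus strand and Notch3 from chr17:32166841-32167140 on the minus strand. Capitals mark matches on either strand to the motifs searched. The GC box is spelled GGGCGG and the GATA motif GATAA. The letters AGGTGT stand for the T-box motif, and the cyclic AMP response element reads TGACGTCA. Also searched, with no match in these 4 windows, were the MEF2 motif, the CArG box and the RBPJ motif spelled TGGGAA. The same holds for the letters TATAAA of the TATA box and for the Nr4a-type element AAAGGTCA.
Cspg4: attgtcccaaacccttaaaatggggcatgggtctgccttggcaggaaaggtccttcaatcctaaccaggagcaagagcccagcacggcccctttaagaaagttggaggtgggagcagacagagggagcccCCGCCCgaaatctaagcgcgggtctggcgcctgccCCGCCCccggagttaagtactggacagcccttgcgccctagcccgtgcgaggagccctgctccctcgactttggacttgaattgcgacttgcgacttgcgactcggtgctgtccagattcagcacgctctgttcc
Rgs5: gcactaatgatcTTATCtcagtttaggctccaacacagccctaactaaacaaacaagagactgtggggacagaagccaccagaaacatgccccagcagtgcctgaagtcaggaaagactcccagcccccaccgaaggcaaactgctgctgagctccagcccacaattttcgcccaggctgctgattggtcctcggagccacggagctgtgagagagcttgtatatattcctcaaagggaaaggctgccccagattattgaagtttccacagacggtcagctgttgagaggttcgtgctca
Mcam: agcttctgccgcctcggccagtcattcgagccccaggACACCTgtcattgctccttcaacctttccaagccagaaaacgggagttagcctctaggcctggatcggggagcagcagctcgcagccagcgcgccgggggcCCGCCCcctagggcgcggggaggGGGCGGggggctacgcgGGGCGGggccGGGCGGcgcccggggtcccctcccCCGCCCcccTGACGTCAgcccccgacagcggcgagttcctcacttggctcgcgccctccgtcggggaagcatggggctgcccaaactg
Notch3: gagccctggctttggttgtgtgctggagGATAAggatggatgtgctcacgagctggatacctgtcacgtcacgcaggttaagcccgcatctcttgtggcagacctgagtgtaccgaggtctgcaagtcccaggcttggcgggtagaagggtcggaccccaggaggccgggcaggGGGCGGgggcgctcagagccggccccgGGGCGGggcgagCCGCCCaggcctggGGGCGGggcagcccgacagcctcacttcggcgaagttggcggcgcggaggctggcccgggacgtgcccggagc
The GC box, present in 35.7% of 32851 promoters of this length, had 5 matches in Mcam, 4 in Notch3 and 2 in Cspg4. The Mcam window also held 1 cyclic AMP response element, a sequence in 1.79% of promoters, and 1 T-box match, which 13.7% of promoters hold. Rgs5 and Notch3 each held 1 GATA match, as 25.4% of promoters do. No motif of those searched occurred in all 4 windows, and none of the 6 matched members held the Nr4a-type letters AAAGGTCA, which 1.51% of promoters hold, within this window.

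Depth was 17.3 to 22.3M counts (M, mega) in the CF libraries, 14.5 to 18.8M in the LacZ and MGT libraries, 14.3 to 18.4M in the overexpression libraries and 39.7 to 43.4M in the knockdown libraries. Levels are counts per M (CPM) after library scaling, and differences are log2 fold changes with standard errors from edgeR's quasi-likelihood test, called at a Benjamini-Hochberg adjusted p under 0.05 over all genes of a table. Of the 7 members, 6 passed the filter on low counts in all 4 bulk tables. Kcnj8 passed in none, with 0 to 12 counts in a library. Nr4a3 itself checked the labels: it stood at 2.49 and 1.85 CPM in OECtrl and at 175 and 178 CPM in OENr4a3, and at 8.84 and 8.18 CPM in shNT and 0.431 and 0.744 CPM in shNr4a3.

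Per kilobase of exon, the members differed in level by orders of magnitude within each group. In neonatal CFs the order of mean CPM per kilobase was Mcam (117), Pdgfrb (92.3), Notch3 (25.5), Cspg4 (24.5), Rgs5 (1.74), Abcc9 (0.249) and Kcnj8 (0.0926). In 24-month CFs it was Pdgfrb (134), Notch3 (11.2), Mcam (4.53), Abcc9 (0.440), Cspg4 (0.269), Rgs5 (0.244) and Kcnj8 (0.176). Pdgfrb and Notch3 thus led at 24 months, Cspg4 had moved from the fourth place to the fifth, and the channel genes stayed low at both ages.

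Cspg4 and Mcam, the surface markers, fell most between neonatal and adult CFs, Notch3 and Rgs5 fell less, and Pdgfrb rose. In the comparison of 3-month with neonatal CFs, 1 tested member rose and 4 fell, where 28% of all tested genes rose and 24.4% fell. At 12 months 1 rose and 4 fell (29.7% and 25.5% of all genes), and at 24 months 2 rose and 4 fell (27.9% and 26.6%). With so large a share of all genes called, the counts alone do not set the members apart. The median log2 fold change of the 6 tested members was -1.34, -1.83 and -2.01 at 3, 12 and 24 months, against 0.01, 0.03 and -0.01 for all tested genes. The 3 comparisons share the neonatal libraries.

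**Figure D1:**
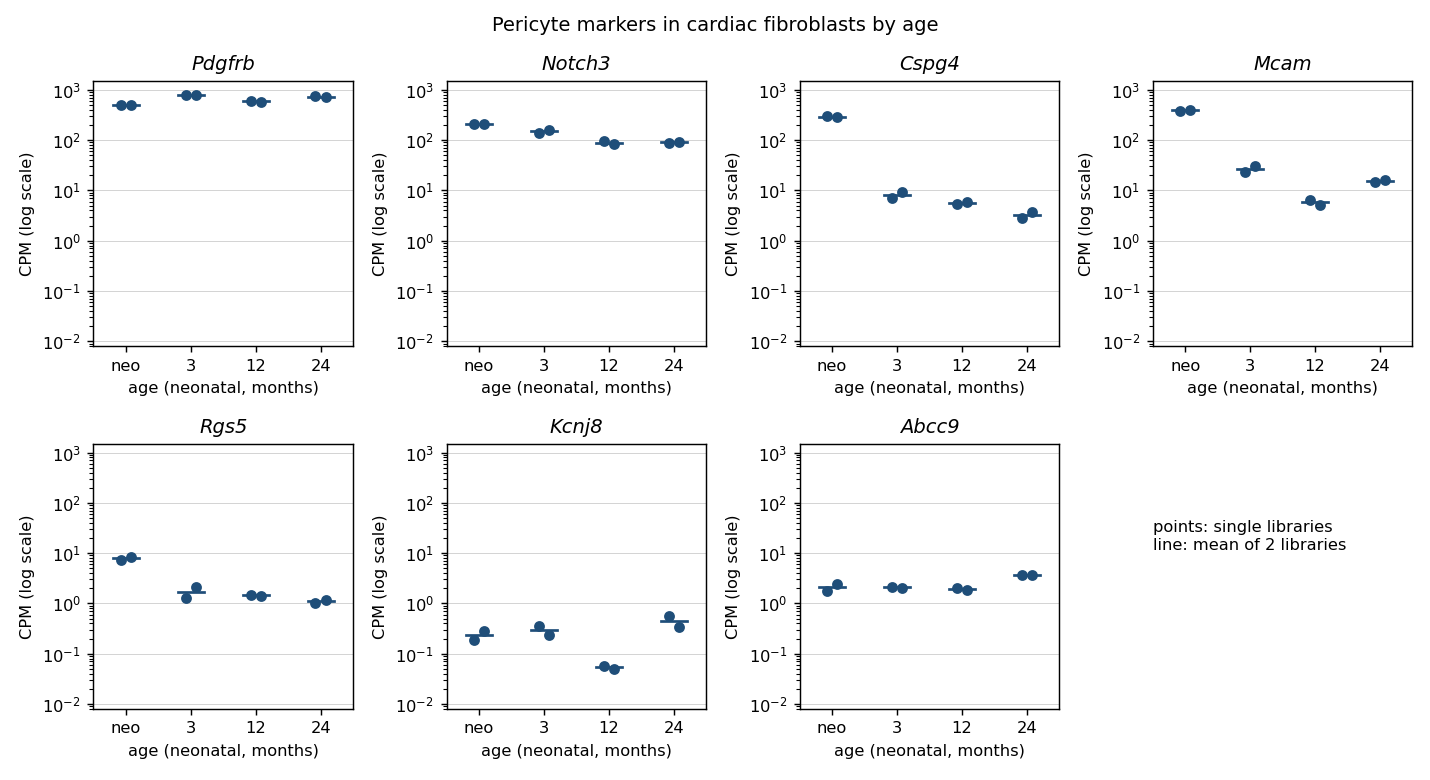
Levels of the 7 pericyte markers in CFs cultured from neonatal, 3-, 12- and 24-month mice, in CPM on a log axis; points are single libraries and lines the mean of 2 libraries. Cspg4 and Mcam stand at 283 to 400 CPM in the neonatal libraries and at 2.77 to 31.0 CPM in the adult ones, while Pdgfrb lies between 499 and 807 CPM throughout.

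Cspg4 stood at 302 and 283 CPM in the neonatal CFs. It was at 7.01 and 9.15 CPM at 3 months, at 5.39 and 5.92 CPM at 12 months and at 2.77 and 3.66 CPM at 24 months. Every adult library was below both neonatal ones, and no 2 ages overlapped. The log2 fold change against neonatal CFs was -5.18 ± 0.08 (SE) at 3 months (edgeR adjusted p = 1.38e-30), -5.69 ± 0.09 at 12 months and -6.51 ± 0.09 at 24 months, the last a 90.9-fold lower level. Among adults Cspg4 was lower still at 24 than at 12 months (-0.82 ± 0.17, edgeR adjusted p = 0.000529). The difference from 3 to 12 months (-0.51 ± 0.14, edgeR adjusted p = 0.00536) was not called without the second 3-month library (adjusted p = 0.173) or the first 12-month library (0.0518).

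Mcam stood at 385 and 400 CPM in neonatal CFs and at 23.2 and 31.0 CPM at 3 months. It was at 6.47 and 5.22 CPM at 12 months and at 14.5 and 15.9 CPM at 24 months, so its lowest adult age was 12 months. No 2 of these groups overlapped. Its log2 fold change against neonatal CFs was -3.86 ± 0.09 at 3 months, -6.08 ± 0.12 at 12 months and -4.69 ± 0.10 at 24 months (edgeR adjusted p = 5.87e-13, 6.73e-14 and 1.57e-13). From 12 to 24 months it rose by 1.38 ± 0.17 on the log2 scale (edgeR adjusted p = 8.84e-05), while Cspg4 fell.

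Notch3, the receptor of the list, stood at 207 and 205 CPM in neonatal CFs, 140 and 159 CPM at 3 months, 94.0 and 84.2 CPM at 12 months and 88.3 and 92.1 CPM at 24 months. The neonatal and 3-month groups overlapped with no other, and the 12- and 24-month groups overlapped each other. Its log2 fold change against neonatal CFs was -0.47 ± 0.05, -1.21 ± 0.06 and -1.19 ± 0.06 at the 3 adult ages (edgeR adjusted p = 1.14e-08, 1.35e-17 and 1.28e-17). Rgs5 stood at 7.36 and 8.41 CPM in neonatal CFs and between 1.03 and 2.11 CPM in the adult libraries. Its log2 fold change was -2.21 ± 0.22, -2.45 ± 0.24 and -2.82 ± 0.24 (edgeR adjusted p = 2.89e-10, 1.08e-10 and 5.82e-12), with no overlap between neonatal and adult libraries and none of the differences between adult ages called.

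Pdgfrb, the receptor for PDGF-BB, moved the other way. It stood at 499 and 512 CPM in neonatal CFs, 788 and 807 CPM at 3 months, 612 and 563 CPM at 12 months and 742 and 725 CPM at 24 months. The adult levels were all above the neonatal ones, by 0.66 ± 0.04, 0.22 ± 0.04 and 0.54 ± 0.04 on the log2 scale (edgeR adjusted p = 3.10e-15, 4.23e-05 and 4.73e-13). The small difference between 24 and 3 months (-0.12 ± 0.04, edgeR adjusted p = 0.0359) was not called when any 1 of the libraries was left out (adjusted p 0.0774 to 0.231), with RLE size factors (0.0562) or in DESeq2 (0.0856). Abcc9 stood at 1.78 and 2.39 CPM in neonatal CFs and at 1.84 to 2.11 CPM at 3 and 12 months, with overlapping groups. At 24 months it was at 3.61 and 3.75 CPM, 0.83 ± 0.23 above neonatal (edgeR adjusted p = 0.00301). That call was lost without the first neonatal library (adjusted p = 0.0907) and in DESeq2 (0.0679). Kcnj8 had 1 to 12 counts in a CF library.

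The members also differed between adult ages. From 3 to 12 months 0 rose and 4 fell of the 6 tested, where 13% of all genes rose and 15.5% fell: Mcam (-2.22 ± 0.16), Notch3 (-0.75 ± 0.06), Pdgfrb (-0.44 ± 0.04) and Cspg4, given above. From 3 to 24 months 1 rose and 4 fell (8.85% and 9.47% of all genes), with Cspg4 at -1.33 ± 0.15, Mcam at -0.83 ± 0.12, Notch3 at -0.73 ± 0.06 and Pdgfrb as above. From 12 to 24 months 3 rose and 1 fell (10.8% and 8.07%), with Pdgfrb at 0.32 ± 0.04 and Mcam and Cspg4 as above. Abcc9 rose from 3 to 24 months (0.82 ± 0.23, edgeR adjusted p = 0.0095), a call lost without the first or second 3-month library or the second 24-month library (adjusted p = 0.052, 0.0615 and 0.0623) and in DESeq2 (0.136). From 12 to 24 months Abcc9 rose by 0.92 ± 0.24 (edgeR adjusted p = 0.00504), lost without the second 12-month library (adjusted p = 0.0769) and in DESeq2 (0.0762).

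The 8 fibroblast markers summed to 18521 to 29827 CPM in the CF libraries. Markers of other cell types moved with age in the same libraries. The summed level of 8 endothelial markers was 953 to 964 CPM in neonatal CFs and 74.9 to 178 CPM in the adult libraries, that of 8 cardiomyocyte markers 1051 to 1139 against 10.4 to 34.8 CPM, and that of 6 epicardial markers 153 to 155 against 1.19 to 4.18 CPM. The 6 smooth muscle markers summed to 4696 to 4929 CPM in neonatal and 1234 to 1450 CPM in adult CFs. Xist, which marks cells with 2 X chromosomes, was at 1277 and 1288 CPM in neonatal, 775 and 833 CPM in 24-month and at or under 0.479 CPM in 3- and 12-month CFs. The part of any of these in the members' differences was not tested. In bulk libraries fewer cells of a type and less RNA per cell cannot be told apart.

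The wider mural list, 23 genes that are no members, did not fall as a whole. At 24 months against neonatal CFs, where 27.9% of all genes rose and 26.6% fell, 8 of its 20 tested genes rose and 9 fell, with a median of -0.14. The counts of this and of the next lists are to be read against those shares, and none was tested against them. Steap4, a metalloreductase, rose by 7.62 ± 0.19 on the log2 scale and Ebf1, a transcription factor, by 1.36 ± 0.05, while Itga7, a laminin-binding integrin chain, fell by 3.44 ± 0.11 (edgeR adjusted p = 5.86e-21, 5.55e-21 and 1.67e-23). Among smooth muscle genes 0 rose and 10 fell of 10, with Lmod1, Acta2 and Tagln at -3.90, -1.75 and -1.75. In the Notch pathway list 1 rose and 8 fell of 14, led by the target gene Heyl (-4.11 ± 0.14). In the PDGF list 3 rose and 3 fell of 6: Pdgfra, the sister receptor, was 3.07 ± 0.05 higher and the ligand gene Pdgfa 3.27 lower on the log2 scale.

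MGT raised Cspg4 at every age, with a larger log2 fold change in adult than in neonatal cells. In neonatal cells Cspg4 was the only tested member called (1 rose and 0 fell of 6, where 4.26% of all genes rose and 3.24% fell). At 3 months 1 rose and 1 fell (8.99% and 8.39% of all genes), and at 18 months 2 rose and 1 fell (8.52% and 8.05%). Cspg4 stood at 122 and 131 CPM with LacZ and 218 and 239 CPM with MGT in neonatal cells. At 3 months it was at 2.69 and 1.48 CPM with LacZ and at 30.5 and 23.6 CPM with MGT. At 18 months it was at 5.21 and 4.10 CPM with LacZ and at 59.2 and 71.7 CPM with MGT. The treatment groups did not overlap at any age, and all adult MGT libraries stayed below the neonatal LacZ libraries. In mean CPM it went from 126 to 228 in neonatal, from 2.08 to 27.1 in 3-month and from 4.66 to 65.5 in 18-month cells, so the difference in CPM, unlike the fold change, was largest in neonatal cells.

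The log2 fold change of Cspg4 with MGT was 0.85 ± 0.12 in neonatal cells (edgeR adjusted p = 9.47e-05), 3.72 ± 0.21 at 3 months (1.56e-10) and 3.81 ± 0.17 at 18 months (7.78e-12). The effect of MGT was thus 2.87 ± 0.25 larger at 3 months (edgeR adjusted p of the interaction = 7.21e-07) and 2.95 ± 0.21 larger at 18 months (7.69e-08) than in neonatal cells. In the first interaction 1 member was called higher and 0 lower (2.28% and 1.41% of all genes), and in the second 2 higher and 0 lower (2.03% and 0.788%). The 18-month and 3-month effects differed by 0.09 ± 0.32 (edgeR adjusted p = 0.957), and no member was called in that interaction by edgeR, where 1.56% of all genes were called higher and 0.782% lower and 3 members had an unadjusted p under 0.05.

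**Figure D2:**
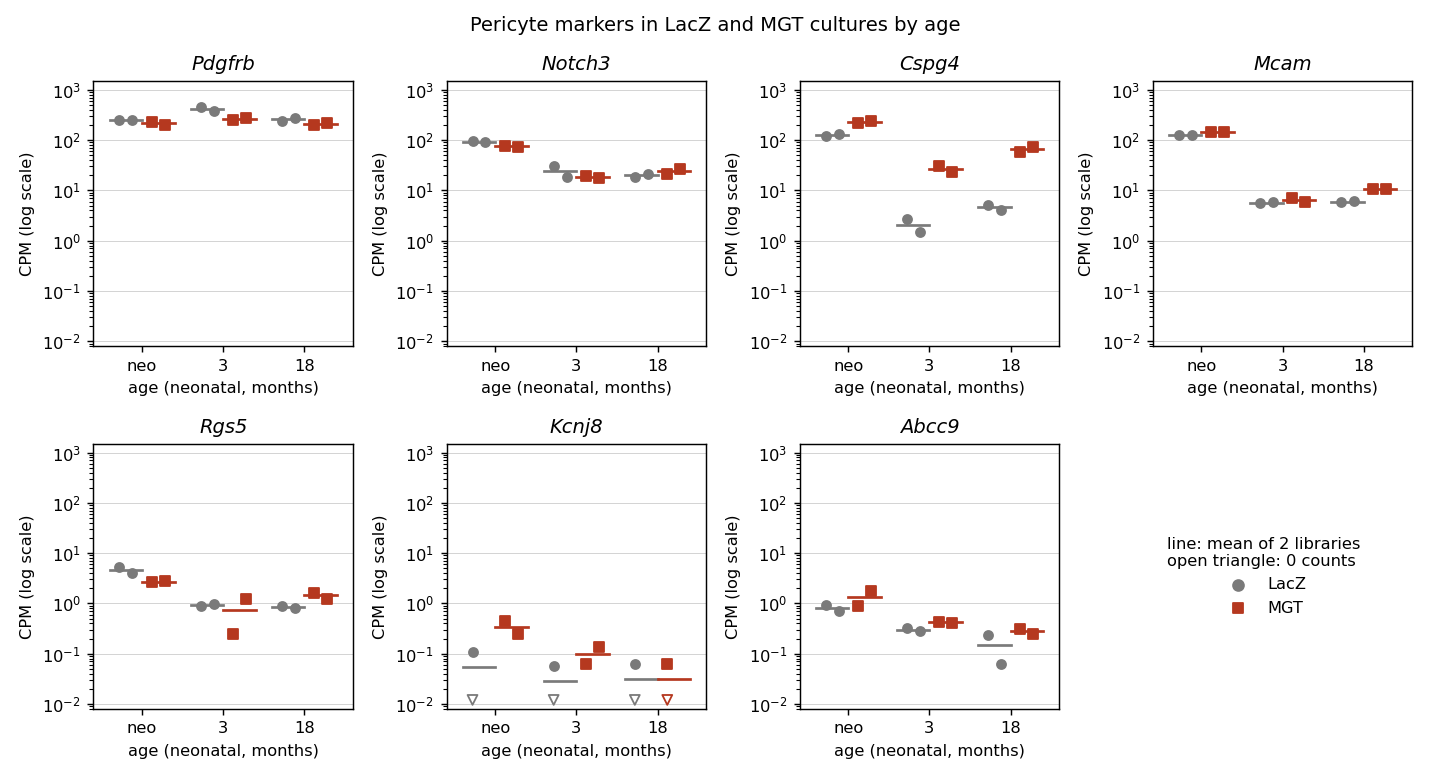
Levels of the pericyte markers with LacZ (grey circles) and MGT (red squares) by age, in CPM on a log axis; lines are means of 2 libraries and open triangles libraries with 0 counts, drawn at the foot of the axis. Adult LacZ libraries hold Cspg4 at 1.48 to 5.21 CPM and adult MGT libraries at 23.6 to 71.7 CPM.

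Mcam did not follow Cspg4 at 3 months, where it was at 5.56 and 5.85 CPM with LacZ and 6.94 and 6.0 CPM with MGT (0.18 ± 0.14, edgeR adjusted p = 0.438). At 18 months it rose from 5.97 and 6.03 CPM to 10.5 and 10.7 CPM (0.82 ± 0.13, edgeR adjusted p = 5.74e-05). In neonatal cells it was at 127 and 124 CPM with LacZ and 143 and 145 CPM with MGT (adjusted p = 0.224 by edgeR). The 18-month effect exceeded the neonatal one by 0.63 ± 0.16 (edgeR adjusted p of the interaction = 0.0262), but the call was lost when any 1 of the libraries other than the first 18-month MGT library was left out (adjusted p 0.0798 to 0.133).

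Pdgfrb was lower with MGT at 3 months, at 252 and 275 CPM against 461 and 381 CPM with LacZ (-0.68 ± 0.10, edgeR adjusted p = 1.07e-05). At 18 months it was at 202 and 224 CPM against 241 and 282 CPM (-0.30 ± 0.10, edgeR adjusted p = 0.0389), a call lost without the second LacZ library or either MGT library (adjusted p = 0.437, 0.285 and 0.0556). In neonatal cells its levels were 227 and 203 CPM with MGT and 250 and 249 CPM with LacZ, not called. Notch3 was not called with MGT at any age: it stood at 75.0 and 74.5 CPM against 95.2 and 90.8 CPM in neonatal cells and at 17.3 to 31.1 CPM in the adult libraries of both treatments. Rgs5 was at 2.64 and 2.73 CPM with MGT and 5.24 and 4.0 CPM with LacZ in neonatal cells, and at 0.248 to 1.63 CPM in all adult libraries, not called at any age. Abcc9 was at or under 1.76 CPM, and Kcnj8 had 0 to 8 counts in a library.

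Age also separated the LacZ and the MGT cultures. From neonatal to 3-month LacZ cells 1 tested member rose and 4 fell (15.1% and 15.8% of all genes), and to 18 months 0 rose and 5 fell (16.7% and 18.3%). In MGT cells 1 rose and 5 fell at 3 months (12.5% and 13.5%), and 0 rose and 4 fell at 18 months (14.4% and 16.2%). With LacZ, Cspg4 was lower by 5.94 ± 0.19 and 4.75 ± 0.17 on the log2 scale at 3 and 18 months, and with MGT it fell by 3.07 ± 0.14 and 1.80 ± 0.13. Mcam was lower with both treatments, at -4.46 and -4.39 with LacZ and -4.47 and -3.76 with MGT. Notch3 was lower too, at -1.92 and -2.20 with LacZ and -2.01 and -1.62 with MGT. The neonatal libraries held Xist at 516 and 548 CPM (LacZ) and at 526 and 440 CPM (MGT), while none of the adult ones exceeded 0.568 CPM. Endothelial markers summed to 249 to 348 CPM in the neonatal libraries of both treatments and 7.94 to 29.3 CPM in the adult ones. With LacZ, cardiomyocyte markers summed to 285 to 333 CPM in neonatal and 3.79 to 6.26 CPM in adult libraries, and smooth muscle markers to 3469 to 3523 CPM and 1203 to 2644 CPM. With MGT these sums were 1007 to 1488 and 328 to 383 CPM for cardiomyocyte markers and 4243 to 4498 and 1930 to 3592 CPM for smooth muscle markers. Their part in the age differences was not tested. As Xist separated all neonatal from all adult libraries, sex and neonatal against adult age cannot be told apart here.

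Rgs5 fell by 2.30 ± 0.39 and 2.45 ± 0.40 on the log2 scale in 3- and 18-month LacZ cells. In MGT cells it fell by 1.88 ± 0.44 at 3 months, a call lost without the first 3-month MGT library (-1.11, adjusted p = 0.0798), and its value at 18 months was -0.89 ± 0.39 (edgeR adjusted p = 0.0832). Between 3 and 18 months, Cspg4 rose both with LacZ (1.19 ± 0.27, edgeR adjusted p = 0.00285) and with MGT (1.27 ± 0.14, 2.38e-06). The LacZ call was lost without the second 3-month LacZ library (0.81, adjusted p = 0.0664). In all 1 member rose and 1 fell with LacZ (10.8% and 12.2% of all genes) and 2 rose and 1 fell with MGT (8.12% and 9.29%), Mcam being the other that rose with MGT (0.71 ± 0.13).

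The remaining calls by age concerned Pdgfrb and Abcc9. Pdgfrb was 0.75 ± 0.10 higher in 3-month than in neonatal LacZ cells and 0.68 lower at 18 than at 3 months. In MGT cells the Pdgfrb differences of 0.29 ± 0.10 (3 months against neonatal) and -0.31 ± 0.10 (18 against 3 months) rested on single libraries. The first was lost without the second neonatal or either 3-month library (adjusted p 0.0507 to 0.286), and the second without any 1 of its 4 libraries (0.0507 to 0.269). Abcc9, at or under 1.76 CPM in these libraries, was called lower in 3-month MGT, 18-month MGT and 18-month LacZ cells, at -1.62 ± 0.58, -2.20 ± 0.62 and -2.36 ± 0.73. The first was lost without the second neonatal or either 3-month MGT library (adjusted p 0.402, 0.174 and 0.183), and the second without the second neonatal or second 18-month MGT library (0.151 and 0.0744). The third was lost without the first neonatal or second 18-month LacZ library (0.0831 and 0.147). In DESeq2 the first and the third were not called either (adjusted p = 0.158 and 0.0535), nor was the first with no filter on low counts (0.0914).

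Markers of other types differed between treatments too. The 8 cardiomyocyte markers summed to 4.66 to 5.50 CPM with LacZ and 356 to 383 CPM with MGT at 3 months, and to 3.79 to 6.26 CPM and 328 to 344 CPM at 18 months. The 6 smooth muscle markers summed to 1203 to 1288 CPM with LacZ and 1930 to 1970 CPM with MGT at 3 months. Of 21 tested genes of the wider mural list, 3 rose and 4 fell with MGT in neonatal cells (4.26% and 3.24% of all genes), 3 rose and 10 fell at 3 months (8.99% and 8.39%) and 5 rose and 1 fell at 18 months (8.52% and 8.05%), with Itga7, an integrin chain of muscle, at 4.06 ± 0.13 and Foxs1, a mural transcription factor, at 0.96 ± 0.18 at 18 months (edgeR adjusted p = 6.79e-18 and 0.000377). Their part in the members' differences was not tested.

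Across the 12 LacZ and MGT libraries, the gene whose log2 CPM was most like that of Cspg4 among 9765 genes was Nes (Pearson r = 0.993), followed by Sft2d2 (0.989) and Ralgapa2 (0.984). Mcam was most like Rflnb (0.987), Itga8 (0.983) and Sun1 (0.983), and Notch3 most like Ptpn14 (0.991), Oip5os1 (0.989) and Agap1 (0.987). Rgs5 was most like Kcnj15 (0.956), Ppp2r5b (0.951) and Smpd3 (0.930), Pdgfrb like Pdzd2 (0.958), Fbln1 (0.953) and Ddit4 (0.950), and Abcc9 like Myl12b (0.968), Camk2n1 (0.967) and Ctsa (0.960). No member was among the 3 genes most like another, but Rgs5 and Abcc9 were under the level required of a listed gene and could not appear. Between members the largest correlation was that of Mcam with Notch3 (Pearson r = 0.963) and the lowest that of Cspg4 with Pdgfrb (-0.778). The libraries form 6 groups of 2, so these values describe the groups' levels and carry no test.

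Cspg4 and Pdgfrb were higher after Nr4a3 overexpression and lower after its knockdown, Notch3 was higher in both, and Rgs5 was lower after overexpression and higher after knockdown. With OENr4a3 4 tested members rose and 1 fell (11.9% and 10.8% of all genes), and with shNr4a3 2 rose and 2 fell (27.9% and 26.7%). With so large a share of all genes called in the knockdown, that count does not set the members apart, and with OENr4a3 the calls of Pdgfrb, Rgs5 and Abcc9 were each lost in some alternatives. The experiments differ in age, day and MGT, and were scaled apart, so they were set side by side and not tested against each other.

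Cspg4 stood at 16.3 and 9.93 CPM in OECtrl and 37.0 and 33.1 CPM in OENr4a3 (1.43 ± 0.20, edgeR adjusted p = 0.00255). It was at 6.85 and 6.53 CPM in shNT and 3.73 and 3.49 CPM in shNr4a3 (-0.89 ± 0.19, edgeR adjusted p = 0.00136). The arms did not overlap in either experiment. Pdgfrb stood at 656 and 519 CPM in OECtrl and 848 and 910 CPM in OENr4a3 (0.58 ± 0.12, edgeR adjusted p = 0.0129), a call lost without the second OENr4a3 library (0.54, adjusted p = 0.101). With the hairpin it was at 67.0 and 70.3 CPM against 105 and 111 CPM (-0.65 ± 0.08, edgeR adjusted p = 2.31e-05).

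Notch3 was higher in both experiments. It stood at 50.7 and 38.2 CPM in OECtrl and 88.4 and 84.6 CPM in OENr4a3 (0.96 ± 0.14, edgeR adjusted p = 0.00274). In the knockdown it was at 16.6 and 18.6 CPM in shNT and 41.7 and 44.6 CPM in shNr4a3 (1.29 ± 0.11, edgeR adjusted p = 4.15e-07). Neither pair of arms overlapped.

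Rgs5 had the opposite signs to Cspg4. It stood at 2.08 and 3.23 CPM in OECtrl and 0.991 and 1.06 CPM in OENr4a3 (-1.38 ± 0.37, edgeR adjusted p = 0.0281). That call was lost without the second OECtrl library or either OENr4a3 library (adjusted p = 0.126, 0.115 and 0.0881) and in DESeq2 (0.0958). With the hairpin Rgs5 rose from 2.63 and 2.41 CPM to 6.37 and 6.65 CPM (1.37 ± 0.20, edgeR adjusted p = 7.94e-05). Mcam was not called in either: it was at 34.0 and 30.4 CPM against 22.9 and 28.1 CPM with overexpression (-0.33 ± 0.14, edgeR adjusted p = 0.11; called without the second OECtrl library, at -0.41) and at 11.4 and 10.9 CPM against 9.50 and 9.32 CPM with the hairpin (-0.24 ± 0.14, 0.161).

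Abcc9 stood at 0.208 and 0.419 CPM in OECtrl and 1.05 and 1.11 CPM in OENr4a3 (1.73 ± 0.55, edgeR adjusted p = 0.049), a call lost without the first OECtrl library or either OENr4a3 library (adjusted p = 0.135, 0.239 and 0.282) and in DESeq2 (0.214). In the knockdown its arms overlapped (-0.54 ± 0.50, edgeR adjusted p = 0.379). Kcnj8 had 0 to 5 counts in the overexpression libraries and 4 to 8 in the knockdown libraries.

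**Figure D3:**
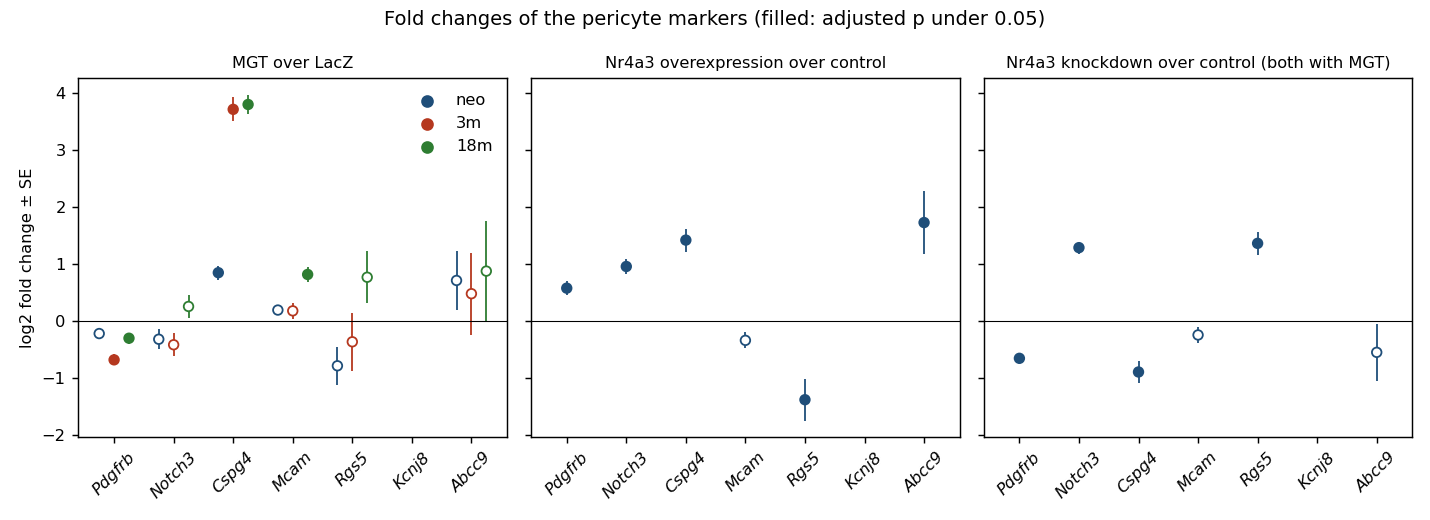
Log2 fold changes with standard errors of the 6 tested markers for MGT over LacZ at 3 ages, Nr4a3 overexpression and Nr4a3 knockdown; filled points had an adjusted p under 0.05, and Kcnj8 was not tested. Cspg4 with MGT stands at 3.72 and 3.81 in 3- and 18-month cells, and Notch3 lies above 0 in both Nr4a3 experiments.

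The counts of other genes of these pathways stand beside shares over all genes of 11.9% higher and 10.8% lower with OENr4a3 and 27.9% and 26.7% with shNr4a3, and were not tested against them. Of the PDGF list, 3 of 6 genes rose and 0 fell with OENr4a3, Pdgfd, Pdgfra and Pdgfc by 0.93, 0.89 and 0.61 on the log2 scale. With shNr4a3 3 rose and 1 fell of 6, with Pdgfrl and Pdgfc at 2.94 and 2.78 and Pdgfra at -2.24. In the Notch list 2 rose and 1 fell of 12 with OENr4a3 and 2 rose and 7 fell of 13 with shNr4a3, where Rbpj, the DNA-binding partner of Notch, was at -1.65 ± 0.08 and the target gene Hey2 at 3.13 ± 0.30. Of the wider mural list 8 rose and 6 fell of 21 with OENr4a3 and 5 rose and 11 fell of 21 with shNr4a3. Rgs4, a relative of Rgs5, was 1 of the 5 that rose with the hairpin, by 4.90 ± 0.11 on the log2 scale (edgeR adjusted p = 7.60e-12), against 11 that fell.

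Other markers moved between these arms as well. The 8 cardiomyocyte markers summed to 9457 to 11051 CPM in shNT and 5526 to 6301 CPM in shNr4a3, and the 6 smooth muscle markers to 597 to 627 CPM and 1285 to 1364 CPM. Between OECtrl and OENr4a3 the epicardial markers summed to 971 to 1032 CPM and 437 to 469 CPM, macrophage markers to 929 to 941 CPM and 600 to 621 CPM, and Xist stood at 282 and 224 CPM and 483 and 484 CPM. Their part in the members' differences was not tested.

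In the single cells no cluster held a UMI of Rgs5, Kcnj8 or Abcc9 in more than 5.32% of its cells. The neonatal library held 4816 barcodes and the 24-month library 6796, of which 3828 and 5773 were kept, with medians of 13960 and 20771 UMIs (counted molecules) a cell. The libraries shared 11 barcodes, 6 of them among kept cells. With 1 library at each age there is no test, age and library cannot be told apart, and intervals (95%, exact) cover counting error only. All 11 clusters held cells of both libraries, but only clusters 5, 6 and 9 were well mixed (80.9%, 27.7% and 21.9% neonatal cells). Neonatal cells made up 95.1 to 98.9% of clusters 0, 1 and 2 and 0.0693 to 7.91% of clusters 3, 4, 7, 8 and 10. A comparison of cluster 0 or 1 with cluster 7 or 8 is thus also one of the libraries. The largest number of members with a UMI in at least 25% of a cluster's cells was 4 of 7, in cluster 1, which is cardiomyocyte-like (918 neonatal cells, led by Myl7, Myh6 and Sln). Cluster 0, with all 8 fibroblast markers detected, had 3, and its Notch3 was just under the cut (24.4%). Depth differed too: the median was 44469 and 58759 UMIs a cell in clusters 1 and 0. It was 2062.5 and 1700 in clusters 2 and 4, which had 0 members over the cut. The lead of cluster 1 thus rests on the cut.

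Summed over kept cells, Cspg4 was at 40.4 CPM (39.3 to 41.6) in the neonatal and 4.19 CPM (3.88 to 4.53) in the 24-month library, and Mcam at 23.7 CPM (22.8 to 24.6) and 1.01 CPM (0.860 to 1.19). Pdgfrb was at 97.9 CPM (96.2 to 99.7) and 172 CPM (170 to 174). Notch3 was at 6.87 CPM (6.42 to 7.35) in the neonatal and 11.8 CPM (11.2 to 12.3) in the 24-month library, the opposite order to that in cultured CFs. Rgs5 was at 1.10 and 0.428 CPM, Kcnj8 at 0.179 and 0.165 CPM and Abcc9 at 0.114 and 0.165 CPM.

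A UMI of Cspg4 was found in 26.0% of neonatal and 6.06% of 24-month cells, and one of Pdgfrb in 40.4% and 54.0%. With each cell thinned to 2000 UMIs, which left out 826 neonatal and 1225 24-month cells, the shares were 5.80% and 0.726% for Cspg4 and 11.9% and 22.3% for Pdgfrb. Mcam was in 3.80% and 0.330% of thinned cells and Notch3 in 1.23% and 1.91%. The order of the libraries was thus the same as in CPM for these 4 genes, though the thinned intervals of Notch3 overlapped (0.869 to 1.69% and 1.53 to 2.35%).

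Clusters differed in which members they held. Among neonatal cells Cspg4 was highest in cluster 6, at 113 CPM (86.2 to 146), from 59 UMIs in 80 cells. This cluster, led by Malat1, Snhg11 and Meg3, had a median of 4648 UMIs a cell. Cspg4 was at 66.5 CPM in the neonatal cells of cluster 1 (59.4% with a UMI) and at 29.0 CPM in those of cluster 0, and over both libraries clusters 1 and 0 held 54.2% and 31.9% of its UMIs. Among 24-month cells it was at 30.9 CPM (17.3 to 51.0) in cluster 1, from 15 UMIs in 3 of 11 cells, and at 22.2 CPM in cluster 6. It was at 4.60 and 4.45 CPM in the 24-month cells of clusters 7 and 8, in which all 8 fibroblast markers were detected as in cluster 0. In the macrophage-like cluster 9, a type that should lack the gene, Cspg4 was at 7.49 CPM in neonatal cells (10.5% with a UMI, median 27280 UMIs) and 0.485 CPM in 24-month cells (0.700%, median 20169 UMIs), below the clusters named in each library. Mcam was highest in the endothelial-like cluster 5, at 198 CPM with a UMI in 78.7% of its 94 cells, against 26.4 CPM in cluster 1 and 19.2 CPM in cluster 0, though clusters 0 and 1 held 38.8% and 39.6% of its UMIs and cluster 5 held 16.0%.

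Pdgfrb was highest in cluster 6, at 249 CPM (225 to 273) over both libraries. It was at 139, 194 and 202 CPM in clusters 0, 7 and 8, at 68.2 CPM in cluster 1, and at 4.79 and 6.05 CPM in the macrophage-like and endothelial-like clusters. Notch3 was at 13.9, 13.5 and 13.6 CPM in clusters 7, 8 and 6. It was higher in cluster 1 (9.67 CPM) than in cluster 0 (5.99 CPM), the opposite order to that of Pdgfrb, and stood at 0.244 CPM in the macrophage-like cells. Kcnj8 and Abcc9 were highest in the endothelial-like cluster, at 2.82 CPM (1.14 to 5.82) and 2.02 CPM (0.655 to 4.71), from 7 and 5 UMIs. Rgs5 was highest there too, at 2.42 CPM (0.888 to 5.27) from 6 UMIs, 5 of them in 1 cell. Its interval overlapped that of cluster 1 (1.48 CPM, 1.15 to 1.88).

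**Figure D4:**
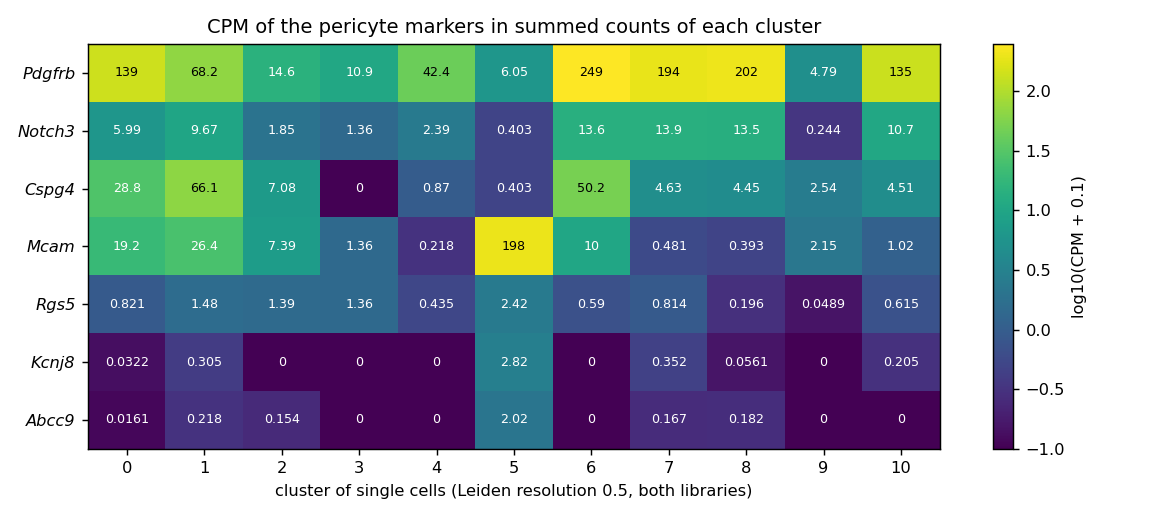
CPM of the 7 markers in the summed counts of 11 clusters of single cells from both libraries, coloured by log10(CPM + 0.1). Mcam stands out in cluster 5 (198 CPM), Cspg4 in clusters 1 and 6 (66.1 and 50.2 CPM) and Pdgfrb in clusters 0, 6, 7, 8 and 10, while Rgs5, Kcnj8 and Abcc9 stay at or under 2.82 CPM in every cluster.

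Rgs5 was concentrated in few cells. In the neonatal library 7 cells with at least 5 UMIs held 92 of its 135 UMIs (68.1%), the highest cell having 49, and in the 24-month library 2 cells held 35 of 65. These 9 cells had 0 UMIs of Kcnj8 and of Abcc9, and 8 of them had UMIs of Pdgfrb. They lay in clusters 0, 1, 5 and 7 rather than in a cluster of their own. Among all cells of clusters 0, 1, 5 and 7, a UMI of Pdgfrb was found in 88.5%, 63.9%, 13.8% and 89.7%. For Kcnj8 the shares were 0.219%, 0.969%, 5.32% and 0.864%, and for Abcc9 0.110%, 0.753%, 4.26% and 0.598%. The counts of these genes thus do not set the 9 cells apart. The highest number of members seen in 1 cell was 5, in 4 neonatal cells, and no cell held 6.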

How the data were processed

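The bulk tables deposited by the authors give unnormalized counts of reads for each gene, and FPKM columns that the authors deposited beside the counts were not used. Per the submitters' processing notes, reads were processed with tools that include Trimmomatic 0.36, SAMtools and featureCounts (Subread 1.5.1), and the build is mm10. Aligner and annotation are not given in the sources used here. The deposited exonic length of a gene, in bases, served for levels per kilobase. The single-cell files hold deposited counts per gene and barcode. Labels were followed where column names differ: 13m in a name stands for 12 months, 15m for 18 months, D3 for MGT and GFP for OECtrl. Overexpression libraries are labelled day 10, though the series text has day 7. The knockdown table has 4 further columns with no matching sample, which were left out.

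Each of the 4 bulk tables was fitted alone in R 4.3.3 with edgeR 4.0.16 (filterByExpr with a minimum count of 10, TMM scaling, 1 coefficient per group, robust quasi-likelihood), in 20 comparisons, with Benjamini-Hochberg adjustment over all genes of a comparison. The script was tested on simulated data. The standard error is the log2 fold change divided by the square root of the F statistic. Barcodes with 500 or more genes and no more than 20% mitochondrial counts were clustered in scanpy 1.11.5 (2000 variable genes, 50 components, 15 neighbours, Leiden resolution 0.5); no doublets were removed, and clusters were named here from marker lists. Alternatives were RLE scaling, no filter, DESeq2 1.42.0, a replicate block, leaving out each library, other cell filters, thinning to 1000 UMIs and resolution 1.0. A fit without 1 library leaves its group with a lone library, which is assumed to vary like the other groups of the table. In the overexpression and knockdown tables the spread then comes from 1 group of 2 libraries, so calls kept, gained or lost there are weak evidence. Groups did not vary alike: chi-square per degree of freedom between the 2 libraries was 20.8 in 3-month and 2.35 in neonatal LacZ cells. It was 17.0 in OECtrl and 2.64 in OENr4a3, while each fit shares its estimate of the spread over the groups of a table.

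The members and all lists were chosen with earlier results of these data known. Every member is named in every comparison where it was called; for a list, examples come from the 3 members with the smallest p. The genes most like a member have an average log2 CPM of at least 3 and no predicted-gene symbol.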

Additional observations from a re-analysis of the deposited data

Results flagged for a closer look

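The response of Cspg4 to MGT differed between ages by the interaction test. Its log2 fold change was 2.87 larger in 3-month than in neonatal cells and 2.95 larger in 18-month than in neonatal cells (edgeR adjusted p = 7.21e-07 and 7.69e-08). The MGT libraries were above their LacZ controls at each age. Both interactions share the neonatal libraries.

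The response of Mcam to MGT was 0.63 larger in 18-month than in neonatal cells (edgeR adjusted p = 0.0262), and over the libraries left out in turn the adjusted p ranged from 0.0463 to 0.133.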

How the results depend on the processing

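Of 72 called member differences, 55 kept their direction and stayed under the threshold in all alternatives run, and 17 were lost in at least 1. The 3 falls of Cspg4 and of Mcam in adult CFs, the rise of Cspg4 with MGT at each age, its larger log2 fold change in adult cells and the 4 knockdown calls were among those kept. The number of called members in 24- against 3-month CFs was 5, and 3 in DESeq2 and 3 to 4 with 1 library left out. It was 5 with OENr4a3, and 3 in DESeq2 and 2 to 5 with 1 library left out. For 3-month against neonatal MGT cells it was 6, and 3 to 6 with 1 library left out. For the MGT effect at 3 months minus neonatal it was 1, and 2 with no filter on low counts and 1 to 2 with 1 library left out; at 18 months minus neonatal it was 2, and 1 to 2; at 18 minus 3 months it was 0, and 1 with no filter and 0 to 2. The difference of the Cspg4 effect between 18 and 3 months ran from -0.39 to 0.47. Deviations of libraries with the same replicate number were hardly correlated (-0.08 to 0.07), which does not settle whether they shared an animal, culture or day. With a replicate block 19 of 20 counts were unchanged and 1 call was lost, Pdgfrb in 24- against 3-month CFs (-0.12, adjusted p = 0.057). The cause of these changes was not tested. Shares of all genes called under the alternatives are not given here, so the changed counts do not set the members apart. In single cells 5 members (Cspg4, Rgs5, Pdgfrb, Mcam and Notch3) had CPM intervals that did not overlap between libraries, under both other cell filters too. The share of all genes with such intervals was not computed, so this count does not set the members apart. For Rgs5, whose UMIs lay mostly in few cells, the intervals of the shares at 2000 UMIs overlapped (0.0541 to 0.388% and 0.0357 to 0.256%). Those of Notch3 overlapped too. With resolution 1.0, the highest cluster level was 69.6 CPM for Cspg4 and 15.2 CPM for Notch3, and 4 remained the largest number of members detected in a cluster. Kcnj8, with 0 to 12 counts in a bulk library, did not pass the filter on low counts, so its differences were not tested in the main fits.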
